A study of Homo sapiens with 4 samples.

Results

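The transcripts described here were already expressed in mock-treated colon cancer cells and were raised at least 4-fold by each of 3 DNA-demethylating drugs. They were chosen by their measured values. The scaled level of a probe was the log2 intensity on an array minus the 75th percentile over the gene probes on it. A probe was kept when its level was -1 or more on the mock array and lay at least 2 log2 units, or 4-fold, above the mock level with each drug. Of 58201 probes, 18035 were expressed on the mock array by this level, and 97 of these (0.538%) met the rule. Of the 97 probes, 86 had a name and belonged to 83 genes, and 11 could not be named here. The rises from mock are therefore a description of how the probes were chosen, and no test is given for them.

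HML58-3 is a derivative of HCT116, a human colorectal cancer cell line, and was built with a luciferase reporter that a methylated promoter controls. The cells were seeded on day 0, were given mock treatment or a drug at 1 µM, namely DAC, OR-2003 or OR-2100, from day 1, and were collected on day 5. DAC is decitabine, and both OR compounds are DAC with a trialkylsilyl group on the 5′ oxygen, which is n-propyldimethylsilyl in OR-2003 and triethylsilyl in OR-2100. Each treatment was measured on 1 Agilent one-colour expression array, and the 4 arrays lay on 1 slide, so that there are no biological replicates, no standard errors over cultures and no p-values. The only error at hand is the spread between spots of the same probe on an array. The mock array is shared by the 3 comparisons, and its own deviations enter all of them. All 4 arrays come from the same derived line, and no other cell line was on these arrays.

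DAC is built into DNA during replication and traps DNA methyltransferase 1, so that methylation marks are lost as the cells divide. Genes silenced by methylation of their promoters can then be transcribed again. These drugs are also known to switch on an interferon response to double-stranded RNA, and its targets need not be silent beforehand. Transcripts are called silent here when their mock level was under -1, although some of these were still well above background. The transcripts described here had a level of -1 or more with mock.

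All 97 probes were well above background on all 4 arrays, and no spot was saturated. Their levels ran from -0.97 to 6.33 with mock, with a median of 0.20. With DAC the levels ran from 1.27 to 9.09 with a median of 3.61, with OR-2003 from 1.09 to 9.10 with a median of 3.60, and with OR-2100 from 1.20 to 8.98 with a median of 3.58. Across probes the levels with mock and with the drugs overlapped, but for each probe every drug lay above mock by the rule. From here on, 3 values given for the drugs stand in the order DAC, OR-2003, OR-2100. The median difference from mock was 2.87 with DAC, 2.82 with OR-2003 and 2.94 with OR-2100, against -0.26, -0.25 and -0.28 over all expressed probes. None of the 97 was among the brightest 1% of all probes on the mock array, and 8, 9 and 10 were among them on the 3 drug arrays in turn. The median probe moved from percentile 76.2 of its array with mock to 93.4 with DAC.

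Taken drug by drug, 104 expressed probes (0.577%) were raised at least 4-fold with DAC, 115 (0.638%) with OR-2003 and 113 (0.627%) with OR-2100. In the other direction, 237 expressed probes (1.31%) were reduced at least 4-fold by all 3 drugs, so that rises were 29.0% of the 2 kinds together. That split turned on the processing, at 57.8% with normexp background correction (108 raised, 79 reduced), 49.1% with scaling by bright probes (141 and 146) and 19.5% with median scaling (77 and 317). Most rises were near the threshold. The mean log2 difference over the drugs was under 3 for 54 probes, from 3 to 4 for 25, from 4 to 5 for 12 and above 5 for 6. Dim probes gave a larger share of the set than bright ones, with 38 of 3484 probes (1.09%) at a mock level from -1 to 0 against 6 of 2793 (0.215%) from 4 to 7.

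**Figure D1:**
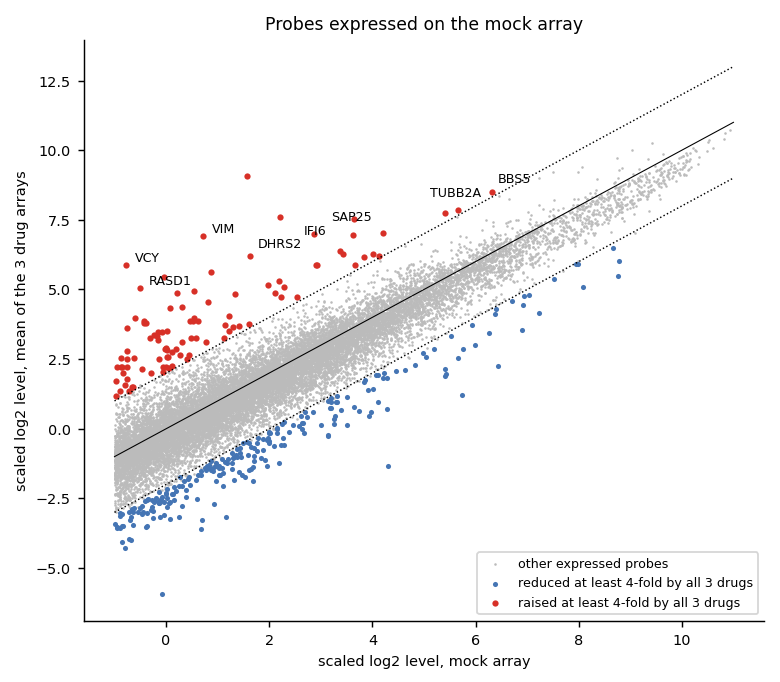
Scaled log2 level on the mock array (horizontal) against the mean of the 3 drug arrays (vertical) for the 18035 probes expressed on the mock array, 1 point per probe, with lines for equal levels and for a 4-fold difference. The 97 raised probes lie along the upper line and mostly to the left, where the mock level was low, and the 237 reduced probes lie under the lower line.

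Sequences of the windows just upstream of some of these genes are shown because demethylating drugs act on CpG sites and because interferon and NF-kappaB responses act through short sequence elements. Each holds the 250 bases before the RefSeq transcription start of the gene, 5′ to 3′ on the strand of the gene, in build GRCh38.p14. In the first set, capitals mark each CG.
VIM: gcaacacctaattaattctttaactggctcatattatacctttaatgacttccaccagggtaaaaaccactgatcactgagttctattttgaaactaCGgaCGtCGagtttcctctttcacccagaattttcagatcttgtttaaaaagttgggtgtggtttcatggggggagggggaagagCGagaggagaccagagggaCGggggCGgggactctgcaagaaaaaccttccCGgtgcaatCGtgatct
DHRS2: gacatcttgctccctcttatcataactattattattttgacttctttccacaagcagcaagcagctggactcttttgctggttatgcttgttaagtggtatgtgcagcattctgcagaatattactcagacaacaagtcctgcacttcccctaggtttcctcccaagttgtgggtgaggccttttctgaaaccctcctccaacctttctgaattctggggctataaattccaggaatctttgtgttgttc
TUBB2A: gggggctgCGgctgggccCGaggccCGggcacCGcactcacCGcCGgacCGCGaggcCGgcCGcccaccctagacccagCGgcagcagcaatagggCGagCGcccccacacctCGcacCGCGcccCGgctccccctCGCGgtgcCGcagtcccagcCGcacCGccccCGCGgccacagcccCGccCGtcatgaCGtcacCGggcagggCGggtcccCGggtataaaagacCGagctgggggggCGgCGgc
The *VIM* window (chr10:17227991-17228240, + strand) holds 8 CG, the *TUBB2A* window (chr6:3157545-3157794, - strand) 33, and the *DHRS2* window (chr14:23629865-23630114, + strand) 0. These genes are members with very different CG content before their starts.

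In the second set, capitals mark the core of an interferon-stimulated response element, GAAANNGAAA or its reverse complement TTTCNNTTTC.
IFI6: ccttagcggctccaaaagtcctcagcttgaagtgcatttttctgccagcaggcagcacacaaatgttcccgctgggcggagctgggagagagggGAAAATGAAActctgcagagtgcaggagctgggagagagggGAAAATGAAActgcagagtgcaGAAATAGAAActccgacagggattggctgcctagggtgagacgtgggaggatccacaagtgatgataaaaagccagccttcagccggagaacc
BST2: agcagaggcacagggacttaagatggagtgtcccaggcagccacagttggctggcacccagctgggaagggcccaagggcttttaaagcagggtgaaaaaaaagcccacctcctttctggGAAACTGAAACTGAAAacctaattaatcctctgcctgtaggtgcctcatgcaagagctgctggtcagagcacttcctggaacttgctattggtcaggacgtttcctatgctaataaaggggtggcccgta
IFIT1: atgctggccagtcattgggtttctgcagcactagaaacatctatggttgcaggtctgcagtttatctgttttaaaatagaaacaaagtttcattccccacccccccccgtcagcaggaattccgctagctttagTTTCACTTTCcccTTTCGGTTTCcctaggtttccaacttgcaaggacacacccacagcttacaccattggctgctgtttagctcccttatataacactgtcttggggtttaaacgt
IFITM1: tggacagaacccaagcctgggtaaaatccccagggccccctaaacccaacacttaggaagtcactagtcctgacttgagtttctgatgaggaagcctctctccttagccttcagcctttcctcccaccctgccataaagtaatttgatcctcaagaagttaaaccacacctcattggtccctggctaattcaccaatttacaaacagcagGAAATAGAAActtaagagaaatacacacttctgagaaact
The core was found 3 times before *IFI6* (chr1:27672193-27672442, - strand), 2 times, overlapping, before *BST2* (chr19:17405631-17405880, - strand), 2 times before *IFIT1* (chr10:89392373-89392622, + strand) and 1 time before *IFITM1* (chr11:313790-314039, + strand). The match farthest from the start began at -156 in *IFI6*, -130 in *BST2*, -116 in *IFIT1* and -40 in *IFITM1*. In the third set, capitals mark an NF-kappaB motif, GGGNNTTTCC or its reverse complement GGAAANNCCC.
CXCL1: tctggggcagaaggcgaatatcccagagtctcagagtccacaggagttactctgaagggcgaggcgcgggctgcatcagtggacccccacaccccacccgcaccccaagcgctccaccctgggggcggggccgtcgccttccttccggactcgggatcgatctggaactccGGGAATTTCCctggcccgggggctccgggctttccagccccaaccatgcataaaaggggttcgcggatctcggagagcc
IL32: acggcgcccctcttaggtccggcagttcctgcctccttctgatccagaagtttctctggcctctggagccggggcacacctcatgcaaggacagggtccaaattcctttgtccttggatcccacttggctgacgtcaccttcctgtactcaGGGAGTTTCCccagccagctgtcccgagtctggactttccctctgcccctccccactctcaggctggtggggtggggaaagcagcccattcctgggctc
BIRC3: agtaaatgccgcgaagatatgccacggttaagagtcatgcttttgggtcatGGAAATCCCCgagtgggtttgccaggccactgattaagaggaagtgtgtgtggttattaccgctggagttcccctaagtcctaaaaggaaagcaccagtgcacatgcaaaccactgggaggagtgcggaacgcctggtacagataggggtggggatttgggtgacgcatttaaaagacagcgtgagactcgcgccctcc
The motif began at -79 from the start of *CXCL1* (chr4:73869143-73869392, + strand), at -99 in *IL32* (chr16:3065153-3065402, + strand) and at -199 in *BIRC3* (chr11:102317234-102317483, + strand). A match is a description of these letters and not a measured binding site.

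The groups of genes below follow what each gene is known for, and the grouping was made with the values known, as were the choices of genes outside the set named for comparison. The largest rises of named genes were in *VCY*, *VIM* and *RASD1*. *VIM*, which codes for vimentin, the intermediate filament protein of mesenchymal cells, was at 0.71 with mock, 6.98 with DAC, 6.84 with OR-2003 and 6.92 with OR-2100. The drug levels were 76.8, 69.8 and 74.0 times the mock level, and intensity went from 250 with mock to 22198 with DAC. Of 9 fibroblast markers, 2 were well above background with mock and 7 with each drug. *THY1* was at -5.22 with mock and at 2.57, 2.65 and 2.61 with the drugs, and *DCN* at -5.16 and at -1.56, -1.43 and -1.56, while *COL3A1* and *LUM* were not well above background on any array. Of 15 colon epithelial markers, 12 were well above background with mock and 14 with each drug, and their median level was 3.88 with mock and 2.94, 2.74 and 2.80 with the drugs. *CLDN4* was at 7.99 with mock and at 5.86, 5.93 and 5.93, *EPCAM* at 6.81 and at 5.32, 5.29 and 5.36, and *CDH1* at 3.88 and at 2.79, 2.70 and 2.63, whereas *KRT20* and *VIL1* went above background with the drugs only. *KRT18*, from 8.78 to 9.37, 9.30 and 9.25, lay higher with each drug, as did *KRT8*, *KRT19* and *CDX2*. Of the 11 epithelial markers expressed on the mock array, 6 were reduced at least 2-fold by all 3 drugs and 0 were raised as much. Over all named expressed genes these shares were 10.8% and 3.73%. The part of these marker shifts in the rise of *VIM* was not tested. *RASD1*, a Ras-related small GTPase induced by dexamethasone, has 10 spots on each array. Its levels were -0.51 ± 0.07 with mock (SD, 8 unmarked spots), 4.98 ± 0.12 with DAC (SD, 8 spots), 5.08 ± 0.08 with OR-2003 (SD, 10 spots) and 5.06 ± 0.06 with OR-2100 (SD, 10 spots). The mean rise was 5.55, and the spread between spots is technical and says nothing of the spread between cultures. The unnamed probe A_21_P0006496 rose most of all, from 1.57 with mock to 9.09, 9.10 and 8.98, or 180-fold on average. It was the brightest of the 97 with each of the drugs.

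Other Ras-like genes were in the set. *RASL10A* was at 1.22 with mock and at 3.95, 4.04 and 4.11 with the drugs, and *RASIP1*, which codes for a Ras-interacting protein of the vascular endothelium, was at 2.19 and at 5.37, 5.32 and 5.20. Both were raised by about the same amount with each drug.

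Germline genes, which are silent in most adult tissues outside the testis and are often methylated in cultured cells, made up the next group. *MAGEA4* was at -0.60 with mock and at 4.0, 3.86 and 4.05 with the drugs. *MAGEA1* was at 0.31 with mock and at 4.29, 4.39 and 4.39, and *MAGEA2B*, which has a near-identical copy in *MAGEA2*, at 0.18 and at 2.84, 2.88 and 2.92. A brighter *MAGEA2B* probe outside the set was at 5.26 with mock and rose less, to 6.40, 6.42 and 6.35. These genes code for cancer-testis antigens of the X chromosome. Of the 7 probes of the MAGEA family expressed on the mock array, 3 were in the set and 6 were raised at least 2-fold by all 3 drugs, against 3.3% of expressed probes. The 4 silent MAGEA probes all rose at least 4-fold and reached -1 or more with each drug. Those already well expressed moved less, as the *MAGEA6* probe at 5.81 with mock reached 6.91, 6.92 and 6.78. *VCY* was at -0.77 with mock and at 5.93, 5.87 and 5.80, but it lies in a near-identical family with *VCX* genes, and the probe may read several of them. *PRAMEF5* was at -0.42 with mock and at 3.88, 3.82 and 3.92, and the PRAMEF genes are close copies in the same way. Among 20 PRAMEF probes this was the only one expressed on the mock array, and 14 of the 19 silent ones rose at least 4-fold. These 14 were counted whatever level they reached. Some of them stayed under -1, such as *PRAMEF2* at -1.88, -2.19 and -2.13 with the drugs. Over the whole array of 58201 probes, of which 18035 were expressed, 975 silent probes rose at least 4-fold and reached -1 or more with each drug. That count is stricter than the PRAMEF count, and the share of all silent probes raised 4-fold at any level was not computed. *GCNA*, a germ cell nuclear protein, was at 0.20 with mock and at 4.98, 4.91 and 4.71. *MEI1*, needed for meiotic recombination, was at 0.01 and at 2.75, 2.76 and 2.98. Of the cancer-testis list of 129 genes, 22 were expressed on the mock array and 3 of these were in the set, against 0.636% of expressed genes by their brightest probe. Of the 22, 7 were raised at least 2-fold by all 3 drugs and 3 reduced as much, against 3.73% and 10.8% of all named expressed genes. The median difference of the 22 was -0.15 with DAC, against -0.23 over all named expressed genes.

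Cytoskeletal genes included 3 tubulins beside *VIM* and *NES*. *TUBA3D*, a testis alpha-tubulin, was at 0.88 with mock and at 5.60, 5.78 and 5.55 with the drugs. *TUBB2A*, a beta-tubulin rich in neurons, was already bright at 5.40 with mock and reached 7.69, 7.77 and 7.76. *TUBB8B* was near the lower limit at -0.72 and reached 1.33, 1.38 and 1.37. Over the tubulin family, 8 of 16 expressed probes were raised at least 2-fold by all 3 drugs, against 3.3% of all expressed probes, and 0 were reduced as much. *TUBB6* came close to the set without entering it, from 6.65 with mock to 8.36, 8.33 and 8.10, and the main alpha-tubulin *TUBA1B* moved little, from 8.00 to 8.24, 8.32 and 8.14. Probes of this family can cross-hybridise between close copies. *NES*, which codes for nestin, an intermediate filament of neural progenitors, was at 0.11 with mock and at 2.74, 2.73 and 2.85.

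Interferon-stimulated genes, which code for antiviral proteins switched on through STAT factors, gave the largest group. Of 54 genes of this list expressed on the mock array, 9 were in the set, against 0.636% of expressed genes by their brightest probe. *IFI6* was at 3.37 with mock and at 6.28, 6.24 and 6.61 with the drugs. *IFITM1*, a membrane protein that blocks viral entry, has 2 probes in the set, the brighter at 3.43 with mock and at 6.15, 6.03 and 6.60 and the other at 2.29 and at 5.02, 4.79 and 5.50. Both probes gave the same order of the drugs. *IRF7*, the factor that amplifies the interferon response, was at 4.14 with mock and at 6.14, 6.15 and 6.35, the closest of all members to the fold threshold. *DHX58*, a cytoplasmic RNA sensor, was at -0.03 with mock and at 2.84, 2.70 and 3.00. *IFIT1*, which binds viral RNA, was at 2.22 and at 4.75, 4.61 and 4.79, and *OASL* at 0.77 and at 3.11, 2.90 and 3.37. *BST2*, or tetherin, has 2 probes in the set, at 2.54 with mock and 4.66, 4.68 and 4.85, and at 1.21 with mock and 3.44, 3.37 and 3.71. *PARP10* was at 1.15 with mock and at 3.71, 3.58 and 3.92, and *C1S*, a complement protease, at 0.27 and at 2.47, 2.68 and 2.76. OR-2100 gave the highest level in each of these genes.

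Of the 45 expressed genes of the interferon list outside the set, 29 lay above mock with all 3 drugs, 17 of them by at least 2-fold, and 12 lay below mock with all 3, none by 2-fold. *TRIM25*, a ubiquitin ligase of RNA sensing, lay lower with the drugs, at 6.23 with mock and 5.72, 5.66 and 5.59. With the members, 26 of the 54 expressed genes were raised at least 2-fold by all 3 drugs and 0 were reduced as much, against 3.73% raised and 10.8% reduced over all named expressed genes. Their median difference was 0.88 with DAC, 0.76 with OR-2003 and 0.96 with OR-2100, against -0.23, -0.23 and -0.27 over all named expressed genes. *ISG15*, a ubiquitin-like protein, was at 6.45 with mock and at 8.34, 8.31 and 8.41, which was just under 4-fold. *OAS3*, which makes the activator of RNase L, was past 4-fold with OR-2100 only, at 0.11 with mock and 1.97, 1.86 and 2.25. The other members of the IFITM family, *IFITM2* at 7.67 with mock and 7.38, 7.34 and 7.46 and *IFITM3* at 8.06 and 7.97, 7.99 and 8.05, stayed within 2-fold of mock. They were the brightest genes of the list with mock.

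Genes of inflammation and of the NF-kappaB pathway gave 5 members out of 29 expressed, against 0.636% of expressed genes by their brightest probe. *CXCL1*, a chemokine that draws neutrophils, rose most, from 0.08 with mock to 4.25, 4.18 and 4.57 with the drugs. *IL32*, a cytokine, was at -0.75 with mock and at 2.41, 2.29 and 2.76. *RELB*, a subunit of NF-kappaB, was the brightest of the 5 with mock at 4.01 and reached 6.30, 6.21 and 6.33. *BIRC3*, an inhibitor of apoptosis and a known NF-kappaB target, was at 0.44 and at 2.65, 2.47 and 2.85. *ICAM1*, an adhesion molecule, has 10 spots and was at -0.30 ± 0.07 with mock (SD, 10 spots), 2.01 ± 0.09 with DAC (SD, 10 spots), 1.92 ± 0.07 with OR-2003 (SD, 10 spots) and 2.12 ± 0.10 with OR-2100 (SD, 10 spots). Each of the 5 was lowest with OR-2003 among the drugs. Of the 29 expressed genes, 11 were raised at least 2-fold by all 3 drugs and 3 were reduced as much (3.73% and 10.8% of all named expressed genes), with median differences of 0.69, 0.63 and 0.68. The chemokine *CXCL2* passed 4-fold with OR-2100 only, at -0.63 with mock and 1.22, 1.14 and 1.58. *LIF*, a cytokine of the IL-6 family, went the other way, from 4.17 to 2.27, 2.12 and 2.48. *IL6ST*, the shared receptor subunit of that family, was in the set through 1 probe, at -0.07 with mock and at 2.05, 2.0 and 2.09.

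Genes best known from blood cells were also among the 97. *PRF1*, the pore-forming protein of cytotoxic lymphocytes, was at -0.86 with mock and at 2.24, 2.15 and 2.29 with the drugs. *LAT*, an adaptor of the T cell receptor, was at 1.31 and at 3.64, 3.64 and 3.67, and *CD52*, a lymphocyte surface peptide, at -0.90 and at 1.51, 1.19 and 1.33. *CCL3*, a chemokine of macrophages, was at -0.76 and at 1.77, 1.79 and 1.81, and *OSCAR*, a receptor of osteoclasts, at -0.18 and at 3.34, 3.30 and 3.37. These levels were low with mock and moderate with the drugs. Of 9 leukocyte markers measured, 0 reached -1 with mock and 4 did with each drug, and their median level was -2.81 with mock and -1.79, -1.75 and -1.64 with the drugs. *MS4A1*, which marks B cells, was not well above background on any array. *PTPRC*, the common leukocyte antigen, stood at -1.48 with mock and at -1.79, -1.75 and -1.64. The part of other cell types in these rises was not tested. In RNA of a whole culture, a rise in every cell and a large rise in few cells cannot be told apart.

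Developmental transcription factors formed a further group. *MSX1*, a homeobox repressor, was bright with mock at 3.83 and reached 6.17, 6.16 and 6.14 with the drugs. *TBX1*, a T-box factor of the pharyngeal arches, was at 0.62 with mock and at 3.89, 3.80 and 3.95. *LHX1* was at 0.01 and at 3.50, 3.48 and 3.51, and *TCF15*, a basic helix-loop-helix factor of somites, at -0.39 and at 3.87, 3.76 and 3.80. *DLX2* was at 0.01 with mock and at 2.16, 2.26 and 2.19, *HES2* at 0.57 and at 3.30, 3.20 and 3.26, and *HOXB2* at -0.62 and at 2.54, 2.68 and 2.44. Of 63 genes of the list of developmental factors expressed on the mock array, 4 were in the set, 8 were raised at least 2-fold by all 3 drugs and 10 were reduced as much. Over all named expressed genes these shares were 0.636%, 3.73% and 10.8%. Within the HOXB cluster, only the 1 *HOXB2* probe of 9 expressed probes was raised 2-fold, and *HOXB5* was reduced from 3.34 to 2.08, 2.14 and 2.12.

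Other groups were small. *H2AC19* was at 0.47 with mock and at 3.94, 3.88 and 3.83 with the drugs, and *H2BC12* at 3.66 and at 5.87, 5.95 and 5.80. Both are core histone genes in clusters of close copies. Of the 61 expressed genes of the histone list, 11 were raised at least 2-fold by all 3 drugs and 16 were reduced as much (3.73% and 10.8% of all named expressed genes), and *H2AC20*, from 4.83 to 2.43, 2.34 and 2.12, moved against *H2AC19*. The imprinted genes *NNAT* and *PEG10* were in the set, *NNAT* at -0.14 with mock and 2.49, 2.45 and 2.54 and *PEG10* at -0.05 and 2.24, 2.18 and 2.26. Imprinted genes are expressed from 1 parental copy, and the parental copies differ in their methylation. Of 25 expressed imprinted genes, 4 were raised at least 2-fold by all 3 drugs and 3 reduced, against 3.73% and 10.8% of all named expressed genes. *BEX1*, a small X-linked adaptor, was at -0.95 with mock and at 2.24, 2.30 and 2.15. Its relatives went both ways. *BEX2*, from 6.21 to 4.29, 4.28 and 4.23, and *BEX3*, from 7.10 to 5.93, 6.01 and 5.81, were reduced. *BEX4*, from -3.52 to -0.33, -0.42 and -0.29, and *BEX5*, from -5.46 to -0.36, -0.52 and -0.53, were silent with mock and rose. *BEX5* was not well above background on all arrays.

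Secreted and matrix genes included *CCN1*, a matricellular protein induced through YAP, at 2.93 with mock and 5.90, 5.92 and 5.84 with the drugs. *MMP9*, a gelatinase, was at 0.32 and at 3.13, 3.13 and 3.12, and *MMP23B* at -0.96 and at 1.73, 1.67 and 1.77. *HYAL1*, a hyaluronidase, was at 0.12 and at 2.24, 2.27 and 2.21, and *PGF*, placental growth factor, at 1.12 and at 3.24, 3.25 and 3.26. For *MMP9* and *PGF* the 3 drugs were within 0.03 of each other. *SUSD2* was at 2.90 and at 5.87, 5.78 and 5.96, and *CHST11*, a chondroitin sulfotransferase, at -0.97 and at 1.27, 1.09 and 1.20, the dimmest member with mock. Of the 48 expressed matrix genes, 2 were in the set, 6 were raised at least 2-fold by all 3 drugs and 6 were reduced as much. Over all named expressed genes these shares were 0.636%, 3.73% and 10.8%.

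Genes of epithelial barriers and of metabolism made up much of the remainder. *KRTAP2-3*, a hair keratin-associated protein of a family of close copies, was at 0.53 with mock and at 4.99, 4.97 and 4.90 with the drugs. *SBSN*, suprabasin of the epidermis, was at 0.53 and at 3.86, 3.94 and 3.84, and *LGALS7*, galectin-7, which has a near-identical copy beside it, at -0.24 and at 3.48, 3.27 and 3.36. The list of keratin and barrier genes as a whole was lower with the drugs, with 3 of 53 expressed genes raised at least 2-fold by all 3 drugs and 18 reduced. Over all named expressed genes, 3.73% were raised and 10.8% reduced as much. *DHRS2*, a short-chain dehydrogenase, was at 1.63 and at 6.21, 6.21 and 6.13, and *PTGDS*, which makes prostaglandin D2, at 0.80 and at 4.63, 4.52 and 4.52. *HSD17B1*, which makes estradiol, was at -0.88 and at 2.58, 2.55 and 2.54, and *APOE*, a carrier of lipids, at 1.60 and at 3.73, 3.79 and 3.81. *SLC2A14*, a glucose transporter of the testis, was at 0.53 and at 3.99, 4.07 and 3.86, and it is a close copy of *SLC2A3*. *GCHFR* was at -0.75 and at 2.22, 2.27 and 2.19, and *ALPG*, a germ cell alkaline phosphatase, at 2.11 and at 4.95, 4.89 and 4.74. *TRPV2*, a cation channel, was at -0.44 and at 3.81, 3.82 and 3.81.

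Some members were already bright with mock. *BBS5*, part of the BBSome of the cilium, had the highest mock level, at 6.33, and reached 8.44, 8.51 and 8.58 with the drugs. Another *BBS5* probe was far dimmer and stayed within 2-fold of mock, at -1.82 with mock and -1.24, -1.42 and -1.38. *GOSR1*, a Golgi SNARE protein, was at 5.66 and at 7.74, 7.88 and 7.93, but its other probe, at 2.39 with mock, did not rise. *SNAR-G1*, a small NF90-associated RNA of a family of close copies, was at 4.21 and at 7.04, 7.14 and 6.92. *SAP25*, a part of the SIN3 corepressor complex, was at 3.62 and at 6.90, 7.0 and 6.94. In linear terms the brighter *BBS5* probe went from an intensity of 12235 with mock to 61298 with DAC. *NACC2*, a transcriptional repressor, has 10 spots and was at 1.41 ± 0.07 with mock (SD, 9 unmarked spots), 3.72 ± 0.06 with DAC (SD, 8 spots), 3.74 ± 0.07 with OR-2003 (SD, 10 spots) and 3.58 ± 0.07 with OR-2100 (SD, 8 spots).

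The named members not yet given were *PCAT19*, *LOC101929128* with 2 probes, *DHRSX*, *TRIML2*, *KIRREL2*, *ATP8B3*, *CCDC106*, *GOLGA8A*, *LINC01589*, *USP31*, *NCAPH2*, *S100A3* and *BAIAP2L2*. Their mean log2 differences lay from 2.09 for *BAIAP2L2* to 3.62 for *PCAT19*. The 11 unnamed probes had mean differences from 2.36 to 7.49, and 3 of the 6 rises above 5 were among them, namely A_21_P0006496, A_21_P0006537 at 5.48 and A_24_P270460 at 5.40. Of the 83 named genes, 31 were in at least 1 of the gene lists and 52 in none.

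Several lists gave no member. Over all expressed genes 0.636% were in the set by their brightest probe, and at so low a share a list of this size need not hold a member. Over all named expressed genes, 3.73% were raised and 10.8% were reduced at least 2-fold by all 3 drugs. None of 55 expressed p53 target genes was in the set, and 5 of them were raised at least 2-fold by all 3 drugs while 5 were reduced. None of 40 genes of the stress response was, and 26 of these were reduced at least 2-fold by all 3 drugs, with a median difference of -1.46 with DAC. The lists of growth signalling (73 expressed genes), replication and mitosis (76), antigen presentation (35), redox and metal response (34), methylation machinery (23) and housekeeping (28) also gave 0 members. Of the 28 housekeeping genes, 0 were raised and 1 was reduced 2-fold by all 3 drugs.

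Other probes of the same genes were not used by the rule and give a check within the same RNA, though not a replicate. For 27 genes the array has 37 further probes, of which 29 in 22 genes were well above background on all arrays. Of the 29, 12 (41.4%; 95% exact interval 23.5% to 61.1%, as though probes were independent) were raised at least 2-fold by all 3 drugs, against 6.38% of all probes well above background, and 0 were reduced as much. The genes fell into 12 whose other probes all rose and 10 with none that did, and 0 were mixed. *CXCL1* had its other probe at -2.31 with mock and 1.26, 1.20 and 1.65 with the drugs. *IL32* had its own at -1.45 and 1.40, 1.26 and 1.69, and *TUBB2A* at 2.18 and 3.89, 3.93 and 3.97. In these genes both probes rose from different mock levels. *PCAT19*, *SUSD2*, *LAT*, *NES*, *DHRSX*, *H2BC12*, *MAGEA2B*, *VCY* and *LOC101929128* were the others.

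In the other 10 genes the second probe did not follow. *GOSR1* had its other probe at 2.39 with mock and at 1.38, 1.23 and 1.43 with the drugs, against a rise of 2.19 in the member probe. *NCAPH2*, a subunit of condensin II, had its member probe at -0.63 with mock and 1.61, 1.51 and 1.43, while its other probes were far brighter, at 5.23 and 5.37 with mock and from 4.81 to 5.10 with the drugs. *HOXB2* had a brighter probe at 1.29 with mock and 1.18, 1.08 and 1.13. *OSCAR* had a brighter probe at 3.20 and 2.89, 2.96 and 2.91, and *KIRREL2* at 1.77 and 1.73, 1.79 and 1.72. In the last 4 of these genes the probe that stayed within 2-fold of mock was the brighter, and the member probe the dimmer. *BBS5*, *PARP10*, *GOLGA8A*, *USP31* and *IL6ST* were the remaining ones, and the other probes of *BBS5* and *PARP10* were dimmer than the members. Of the 10 other probes brighter than the member with mock, 1 was raised 2-fold, and of the 19 dimmer ones, 11 were. Which transcripts the probes read was not tested, and 54 member genes have a single named probe.

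The 3 drugs, used at the same dose and time, were then compared with each other over the 97 probes, which gave 3 pairs. The rule asked for a minimum rise with every drug, and so left out 32 probes that passed with some drugs only, which limits how far apart the drugs could lie in a member near the threshold. No test between compounds could be made with 1 array each. The median log2 difference of OR-2003 minus DAC was -0.01, with a range from -0.32 to 0.24, that of OR-2100 minus DAC was 0.03, from -0.27 to 0.48, and that of OR-2100 minus OR-2003 was 0.02, from -0.30 to 0.71. No probe was 2-fold apart between any pair of drugs. Over the probes with 10 spots, the SD of a difference between single spots had a 95th percentile of 0.14 for OR-2003 minus DAC, and 0.13 for both other pairs. Past 2 such SDs lay 1 of the 97 for OR-2003 minus DAC (against 3.53% of expressed probes), 10 for OR-2100 minus DAC (9.1%) and 12 for OR-2100 minus OR-2003 (9.49%). The shares of the 97 were 1.03%, 10.3% and 12.4%, so that the first was lower than over all expressed probes and the other two were slightly higher. DAC without a silyl group and the n-propyldimethylsilyl and triethylsilyl forms thus gave levels within these ranges in every member, on single arrays, which does not show that they act alike.

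In the 11 probes of interferon-stimulated genes, OR-2100 lay above DAC in 11 and above OR-2003 in 11, with medians of 0.26 and 0.34, and OR-2003 lay above DAC in 3, with a median of -0.12. In the 5 inflammation genes, OR-2100 lay above DAC in 5 and above OR-2003 in 5, with medians of 0.21 and 0.39, and OR-2003 lay above DAC in 0, with a median of -0.09. In the other 81 probes the medians were 0.00, -0.02 and 0.00 for OR-2003 minus DAC, OR-2100 minus DAC and OR-2100 minus OR-2003. *IFITM1* was farthest apart, with OR-2100 above OR-2003 by 0.58 in the brighter probe and 0.71 in the other. *IL32* followed with 0.48, *OASL* with 0.47, *CXCL1* with 0.39 and *BIRC3* with 0.39. Of the probes past 2 spot SDs, 5 of 10 for OR-2100 minus DAC and 7 of 12 for OR-2100 minus OR-2003 were of the interferon list, and 2 and 3 were of the inflammation list.

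The 45 expressed interferon-stimulated genes outside the set were not chosen by the rule and had the following differences. OR-2100 lay above DAC in 34 of them and above OR-2003 in 38, with medians of 0.09 and 0.15, and OR-2003 lay above DAC in 12, with a median of -0.05. In the 24 expressed inflammation genes outside the set, OR-2100 lay above DAC in 15 and above OR-2003 in 17, with medians of 0.03 and 0.05, much smaller than in the 5 members. OR-2003 lay above DAC in 8 of them, with a median of -0.04. Over all expressed probes the medians were -0.05, -0.04 and 0.00 for the same pairs. These genes share 1 array per drug, so that the count of genes is not a count of independent measurements, and no second array of a treatment shows how far arrays of the same RNA differ. Outside these lists, *GOLGA8A* was higher with OR-2100 than DAC by 0.36 and *USP31* by 0.28, *GCNA* was lower by 0.27, and *CD52* was lower with OR-2003 than DAC by 0.32.

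**Figure D2:**
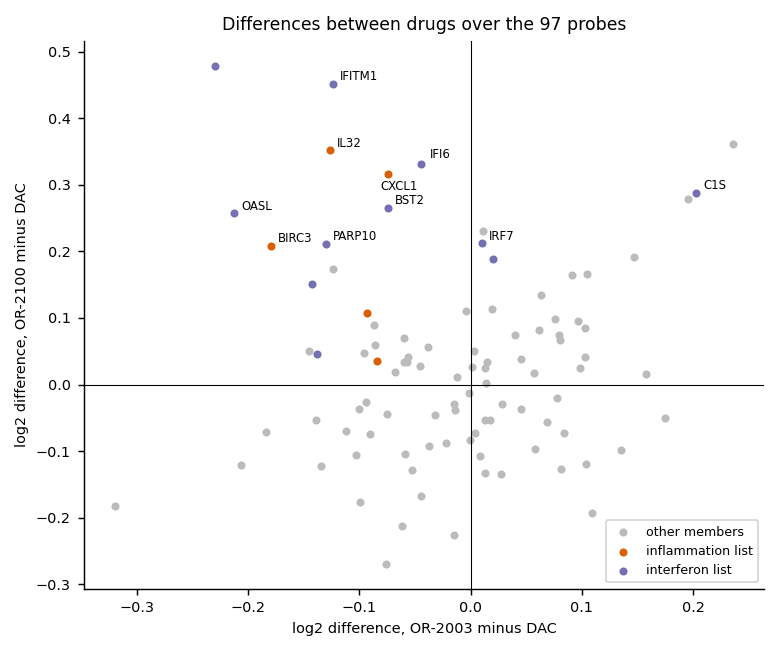
Log2 difference of OR-2003 minus DAC (horizontal) and of OR-2100 minus DAC (vertical) for the 97 probes, 1 point per probe, coloured by list. The probes of the interferon list (11) and of the inflammation list (5) all lie above 0 on the vertical axis, with *IFITM1* highest, while the other 81 are spread on both sides.

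The CpG content of promoters was not used by the rule. A RefSeq window of 300 bases, 250 before and 50 after the start, was found for 58 of the 83 genes. The ratio of observed to expected CpG had a median of 0.62, against 0.84 for genes expressed on the mock array, 0.60 for genes of silent probes raised at least 4-fold by all 3 drugs and 0.72 for genes of expressed probes reduced at least 4-fold. It was above 0.6 in 30 of 58 genes (51.7%; 95% exact interval 38.2% to 65.0%), in 82.2% of the expressed genes, in 50.9% of the silent raised genes and in 65.5% of the reduced genes. In CpG content the already expressed genes that rose were thus closer to the silent genes that rose than to the expressed genes at large. *H2AC19*, at 1.31, and *CHST11*, at 0.97, were at the upper end, and *DHRS2* at 0.00, *BST2* at 0.10 and *HYAL1* at 0.13 at the lower. The windows of *TUBB2A*, *VIM* and *DHRS2* shown above had ratios of 0.89, 0.58 and 0.00.

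**Figure D3:**
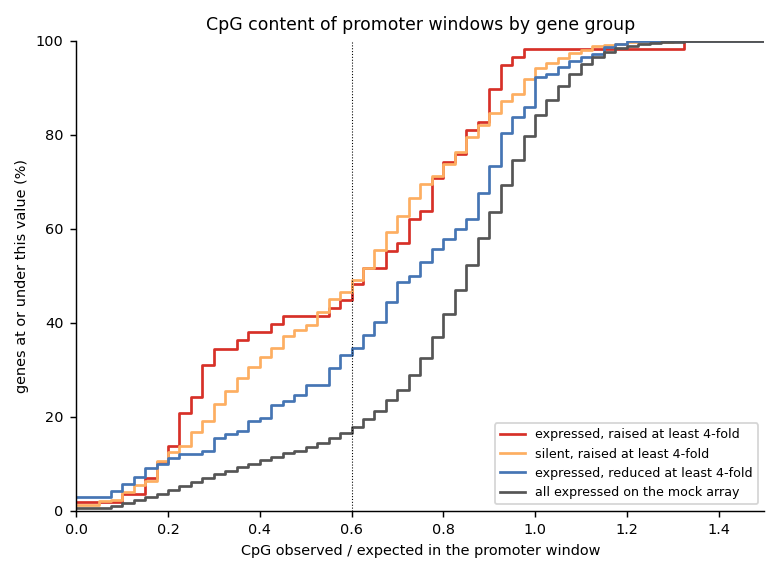
Share of genes (%) at or under each ratio of observed to expected CpG in the promoter window, for the 58 member genes with a window, the genes of silent probes raised at least 4-fold, those of expressed probes reduced at least 4-fold, and all genes expressed on the mock array, with 0.6 dotted. The curves of both raised groups run close together and left of the others, and that of all expressed genes lies farthest to the right.

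The interferon-stimulated response element core was found in the windows of 4 of 58 members (6.9%), *IFI6*, *BST2*, *IFIT1* and *IFITM1*, against 2.6% of expressed genes and 3.65% of the 27305 windows of the table. The NF-kappaB motif was found in 3 (5.17%), *IL32*, *CXCL1* and *BIRC3*, against 2.06% and 1.92%. Among genes of silent probes raised at least 4-fold by all 3 drugs, the shares were 3.90% for the core and 3.51% for the NF-kappaB motif. All 7 genes belong to the list that carries the name of the motif, and the motifs did not occur in windows of members outside these lists. No window was found for *DHX58*, *PARP10*, *C1S*, *OASL* and *IRF7* of the interferon list and *RELB* of the inflammation list, so these were not searched. *ICAM1* had a window without the NF-kappaB motif. By chromosome, 13 of the 83 genes (15.7%) lay on chromosome 19, against 7.0% of expressed genes, 9 (10.8%) on 17, against 6.19%, 7 (8.43%) on 22, against 2.65%, and 6 (7.23%) on X, against 3.19%. Genes of silent probes raised at least 4-fold had 11.5% on 19, 6.90% on 17, 1.72% on 22 and 10.3% on X. The higher shares on 19 and X were thus not particular to the set. The 6 genes of the set on X were *MAGEA1*, *MAGEA2B*, *MAGEA4*, *GCNA*, *BEX1* and *DHRSX*. Of the 83 genes, 4 (4.82%) were not protein coding, against 9.38% of expressed genes.

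Just inside the fold threshold were *IRF7* with a lowest difference of 2.0001, *USP31* with 2.02, *BIRC3* with 2.02, *BAIAP2L2* with 2.03 and *TUBB8B* with 2.05. Just outside it were *FERMT2* with 1.999, *PREX1* with 1.99, *GBX2* with 1.98, *DACT1* with 1.98 and *ZNF426* with 1.95. Just inside the mock level were *CHST11* at -0.97, *MMP23B* at -0.96, *BEX1* at -0.95, *CD52* at -0.90 and *KIRREL2* at -0.88, and just outside it were *SPOCK2* at -1.03 and *PNMA5*, *GPRIN2*, the unnamed probe A_21_P0013169 and *FAM27C*, all 4 at -1.05. *PNMA5* reached 5.73, 5.79 and 5.67 with the drugs, a rise as large as that of the strongest members. A further 32 expressed probes passed 4-fold with some drugs only, 23 with 1 drug and 9 with 2. Their lowest difference with any drug was 1.41 and each was thus raised at least 2-fold by all 3 drugs. OR-2003 passed in 18, OR-2100 in 16 and DAC in 7. They included *HOXB-AS1*, antisense in the HOXB cluster, at -0.51 with mock and 1.52, 1.60 and 1.40, *DUSP1*, a MAP kinase phosphatase, at 0.71 and 2.62, 2.77 and 2.65, and *CD86*, a costimulatory ligand, at 0.79 and 2.75, 2.95 and 2.48. Counted over genes by any expressed probe, 83 of 12128 genes (0.684%) had a probe in the set. With normexp background correction, 18 of the 97 probes fell under 4-fold, among them *ICAM1*, *BIRC3*, *C1S*, *PEG10*, *CD52* and *CCL3*.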

How the data were processed

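The expression of 4 samples of HML58-3 cells, 1 each of mock, DAC, OR-2003 and OR-2100, was analysed. The authors deposited the scanner output of SurePrint G3 Human GE 8x60K arrays, whose intensity values Agilent Feature Extraction 12.1.0.3 had corrected for background, with no normalization across arrays. The deposited value table of the series was identical to them. Cy3-labelled cRNA was made from total RNA.

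Control spots (leaving 60901 gene spots) and spots marked as outliers or non-uniform (52 to 98 per array) were left out, log2 intensity was averaged over the spots of a probe, and the 75th percentile over gene probes was subtracted, after the methods of the study. A probe counted as well above background if this held for over 0.5 of its spots, as held for 31601 to 33282 spots per array. The members and the 23 gene lists were chosen with earlier results of these data known. The rule for named genes took the largest rises, the highest mock levels, the members of each list, the largest differences between drugs, genes with several member probes or 10 spots and those nearest the thresholds, and the remaining members were added for completeness. Names came from a RefSeq table by accession (34892 of 58201 probes), and lists used the brightest probe of each gene. The array design follows another assembly than the table, so coordinates are those of RefSeq promoter windows only. In each window the ratio of observed to expected CpG was computed and both motifs were searched on both strands. Intervals of shares are exact binomial (Clopper-Pearson) and cover counting only. The counting was tested on simulated data. Alternatives were the series table, normexp (offset 50, on the deposited median intensity, as the mean column was not used here), quantile normalization, other percentiles and thresholds. Tools were limma 3.58.1 in R 4.3.3, and pandas 2.3.3, numpy 2.4.6 and scipy 1.17.1 in Python 3.11.15. The number of arrays limits the precision.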

Additional observations from a re-analysis of the deposited data

How the results depend on the processing

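The 97 probes stayed above mock, and at least 2-fold above it, with each drug under every processing alternative. At least 4-fold with each drug were 79 of them with normexp background correction and 77 with median scaling, and all 97 under the others. The set itself held 108 probes with normexp (79 shared with the 97), 113 with quantile normalization (97 shared), 141 with the 75th percentile of bright probes (97 shared) and 77 with median scaling (77 shared). With normexp the 18 lost probes were dim, with a median mock level of -0.18 against 0.53 for the others. A mock level of 0 or more gave 59 probes for all drugs and 61, 71 and 66 for DAC, OR-2003 and OR-2100, and one of -2 or more gave 190, 201, 221 and 216. A log2 difference of 1.5 gave 230, 270, 272 and 261, and one of 2.5 gave 63, 67, 64 and 69. Scaling moved all probes together: over expressed probes the median difference from mock with DAC was -0.26 as reported, -0.06 with the percentile of bright probes and -0.37 with median scaling. With median scaling the median over the 97 of OR-2003 minus DAC was -0.12 and that of OR-2100 minus OR-2003 was 0.16, while over all expressed probes they were -0.11 and 0.09. The gap between the interferon-stimulated members and the 81 others in OR-2100 minus DAC lay between 0.26 and 0.28 under all settings, and OR-2100 was above DAC and OR-2003 in 11 of 11 under each. Scaling by the median or by bright probes shifts a whole array and cannot move such a gap. It could move with normexp, where it was 0.26, and with quantile normalization, where it was 0.27. At a cut of 0.75, 36.2% of the member promoters had a ratio of observed to expected CpG above it, against 67.6% of expressed genes, 30.4% of silent raised genes and 47.2% of reduced genes. Over all named genes on the array it was 47.2% as well. Rises outnumbered reductions only with normexp, at 108 against 79 probes, where the reported counts were 97 and 237. With median scaling DAC raised more probes 4-fold than OR-2003, at 91 against 79, where the reported counts were 104 and 115, and OR-2100 minus OR-2003 over all expressed probes turned from -0.04 to 0.09. No difference from mock of a member changed sign. No paired analysis was possible because a single array stands for each treatment, and for the same reason no replicate could be left out. The dimmest members, near a level of -1, lay at an intensity of 77.5 with mock, where background correction weighs most.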
